A study of Mus musculus with 10 samples.

Results

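The nuclear genes of respiratory complex III, cytochrome c, complex IV and ATP synthase were examined in mouse quadriceps muscle. Members were all gene symbols that begin with Uqcr, with Cox followed by a digit from 4 to 8, or with Atp5, together with Cyc1 and Cycs. This gave 45 of the 24063 symbols in the count tables: 9 of complex III, 1 for cytochrome c, 18 of complex IV and 17 that carry the name of ATP synthase. Enough reads for a test were found for 42 members. Cox6b2 (86 reads over all libraries), Cox7b2 (1 read) and Cox8c (1 read) were too low. Atp5s and Atp5sl match by name only, since their products are not subunits of the enzyme.

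The RNA came from 10 wild-type C57BL mice aged 17 to 20 months. The 5 Control animals drank facility water, and the 5 1C-MIM animals drank the same water with a supplement named 1C-MIM for 1 to 3 months. What 1C-MIM contains is not stated in the labels. All 10 animals had been injured in the tibialis anterior muscle, and the RNA was taken from quadriceps that were not injured. Each table's deposited name carries its own animal number, and n is given in animals.

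Complex III passes electrons from ubiquinol to cytochrome c, and complex IV (cytochrome c oxidase) passes them from cytochrome c to oxygen. Both pump protons out of the mitochondrial matrix, and ATP synthase lets the protons flow back to make ATP. Complexes III and IV and ATP synthase each join a small part encoded in mitochondrial DNA, which was not analysed here, to many subunits encoded in the nucleus. Muscle and heart use their own forms of several complex IV subunits: Cox6a2, Cox7a1 and Cox8b stand in place of the widely expressed Cox6a1, Cox7a2 and Cox8a. Many promoters of these genes are known targets of the factors NRF1 and the estrogen-related receptors (ERR), which act with the PGC-1 coactivators.

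Promoter windows are shown as a description of the members, and no link of a motif to the change in counts was tested. A window of 250 bases before to 50 bases after the gene start was at hand for 35 of the 45 members, from RefSeq on build GRCm38.p6. The full NRF1 motif (the run of capitals in the first 3 stretches below), searched on both strands, was in 4 of these 35 (11.4%; Atp5g2, Atp5k, Cox6a1 and Uqcrc1), against 1.07% of all 27025 genes with a window. The first 3 of those 4 passed the test for lower counts in 1C-MIM, and Uqcrc1 (log2 fold change -0.11, SE 0.07) did not. Stretches of 60 bases, in capitals where the motif lies and written along the gene's own strand (minus for all 5), follow for these 3, for the ERR motif of Atp5g3 and for the muscle E-box of Cox8b.
Atp5g2, chr15:102671055-102671114: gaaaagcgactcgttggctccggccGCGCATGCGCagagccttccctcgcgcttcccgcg
Atp5k, chr5:108434415-108434474: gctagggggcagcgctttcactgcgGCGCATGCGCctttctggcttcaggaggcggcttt
Cox6a1, chr5:115349086-115349145: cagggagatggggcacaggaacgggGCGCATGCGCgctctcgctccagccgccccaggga
Atp5g3, chr2:73911344-73911403: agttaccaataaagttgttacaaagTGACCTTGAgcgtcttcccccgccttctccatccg
Cox8b, chr7:140900447-140900506: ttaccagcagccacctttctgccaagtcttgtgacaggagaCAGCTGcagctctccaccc

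The ERR motif TCAAGGTCA, printed for Atp5g3 as its reverse complement, was in 1 of the 35 windows (2.86%, against 0.466% of all genes). The YY1 motif AAGATGGCG was in Atp5j, Atp5j2 and Atp5sl (8.57% against 1.64%), and the ETS motif CCGGAAGT was in Atp5h, Cox8a, Uqcr11 and Uqcrh (11.4% against 4.31%). The muscle E-box CAGCTG was in Atp5b and Cox8b (5.71% against 18.3%). The MEF2 motif CTAAAAATA was in 0 of the 35 windows (0.588% of all genes). The window of Cox6a2 was not at hand. These matches describe letters only. For the NRF1, YY1, ETS and E-box motifs, members that hold the motif were found on both sides of the test's threshold.

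Libraries held 28521254 to 31771296 counts after 1 transcript was kept for each symbol, and the members took 1.42 to 1.85% of them. Levels are given as CPM, the count divided by the library's TMM-scaled total and multiplied by 1000000, and a gene was called where its p from edgeR's quasi-likelihood test, adjusted by Benjamini and Hochberg across the 13880 genes tested, was under 0.05. Some libraries stood apart. Control 5 was relatively rich in counts of short transcripts, with -0.145 on the log2 scale for each doubling of transcript length, and 1C-MIM 2 was at the other end with 0.121. Control 1 had the lowest summed level of slow or oxidative fibre markers (1737 CPM; the other Control libraries 2540 to 3313 CPM). Among the 1C-MIM libraries, the slope with length of 1C-MIM 1 (-0.026) was the only one below 0. The slopes also went with group. They ran from -0.145 to -0.013 in Control (mean -0.050) and from -0.026 to 0.121 in 1C-MIM (mean 0.050).

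Transcripts of several small subunits of complex III, complex IV and ATP synthase were lower in 1C-MIM quadriceps, and those of the large catalytic and core subunits did not pass the test. In all, 16 of the 42 tested members fell and 0 rose. Decreases among the 16 ran from 14.9 to 28.4%, or -0.23 to -0.48 as log2 fold change. The largest decrease was that of Atp5k, a small membrane subunit of ATP synthase, and the smallest adjusted p that of Cox7a1 (edgeR, 0.00656). Among all tested genes, 11.8% were called lower and 9.78% higher. The median log2 fold change was -0.20 over the 42 members and 0.00 over all tested genes. At an unadjusted p under 0.05, 28 members were lower and 0 higher, and DESeq2 and limma-voom each called 16 lower and 0 higher. Over all tested genes 23.6% under 600 bases, 29.6% from 600 to 1200 bases and 9.61% of longer ones were called lower. With each library's trend with length removed, 5 members were lower and 1 was higher, with a median of -0.03. In that fit 9.31% of all tested genes were called lower. In bulk muscle, fewer cells of a type and less RNA per cell cannot be told apart.

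**Figure D1:**
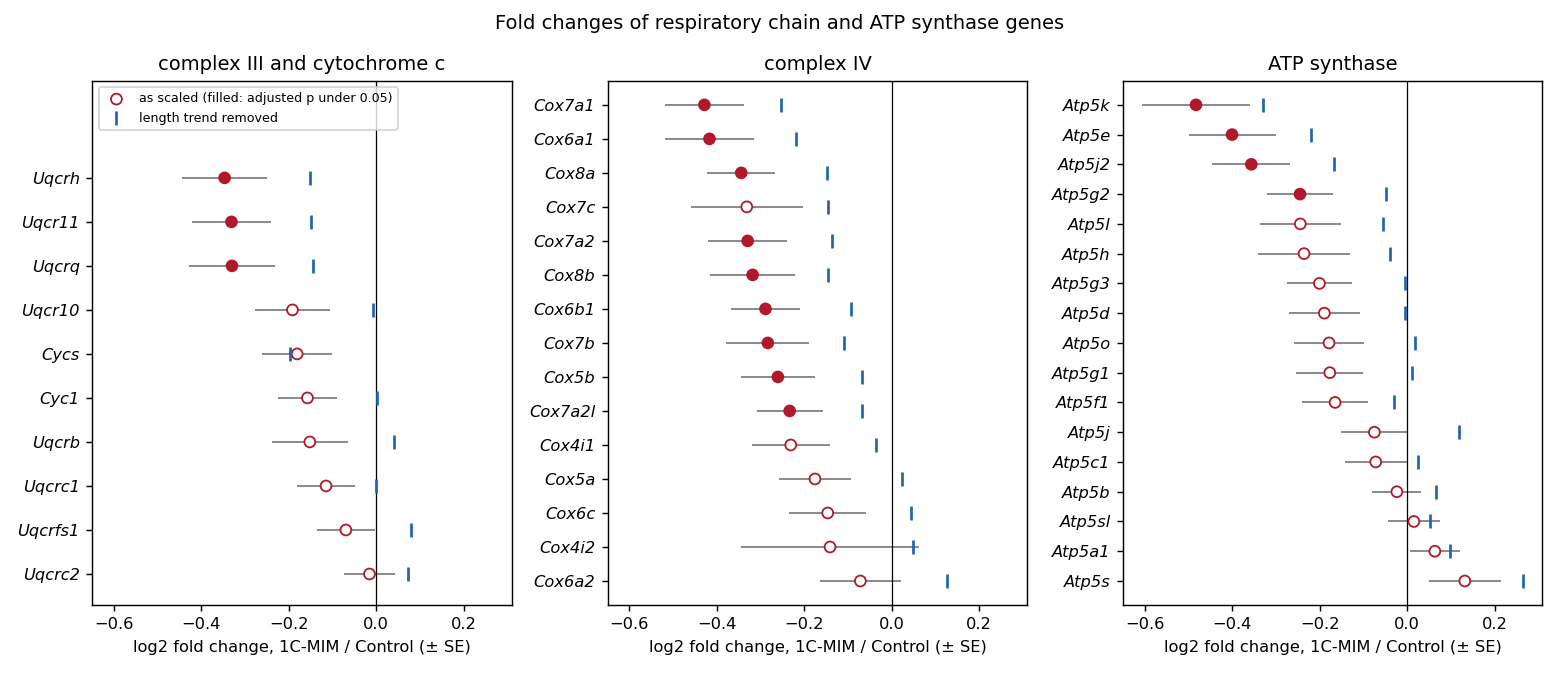
Log2 fold change (1C-MIM against Control) of each of the 42 tested members by complex: circles with bars of 1 SE as scaled, filled where the edgeR adjusted p was under 0.05, and blue ticks with the length trend removed. Filled circles lie between -0.23 and -0.48, and the ticks lie to the right of the circles for every member but Cycs.

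The count of called members depended on which libraries were used. It was 7 without Control 5, 5 without 1C-MIM 4, 6 without 1C-MIM 3, 9 without 1C-MIM 2 and 29 without 1C-MIM 1. Over all genes, 1146, 941, 1057, 1246 and 1885 were called lower in the same fits, against 1642 with all 10 libraries. Without Control 1 and Control 5 together 3 members were called (Cox6a1, Cox7a1 and Cox8a), while 976 of all genes were lower. For the 42 members this is close to the share over all genes. With library totals as the only scaling 31 members and 2896 of all genes were lower, and that scaling moved the median of all genes by -0.07. The deposited names number the animals from 280 (replicates 1 to 3 of each group) or from 380 (replicates 4 and 5), and what these series stand for is not stated. Within the 280 series 0 members were called, with a member median of -0.13, and within the 380 series 3 were (Atp5e, Cox7a1 and Cox7a2), with a median of -0.32. Over all genes 64 and 269 were lower in these 2 series. With the series as a block in a fit of all 10 libraries, 13 members and 1500 of all genes were lower.

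Complex III had 3 of 9 members called lower (median log2 fold change -0.16) and 0 higher. All 3 are small accessory subunits: Uqcr11, Uqcrh (the acidic hinge protein) and Uqcrq. Uqcr11 stood at 202, 222, 215, 221 and 251.9 CPM in Control 1 to 5. In 1C-MIM 1 to 5 it stood at 214, 148, 173, 163 and 185 CPM. Thus 4 of the supplemented libraries were below every Control library, and 1C-MIM 1 lay within the Control range. Its log2 fold change was -0.33 (SE 0.09, edgeR adjusted p = 0.0215).

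Uqcrh followed with 356, 325, 296, 342 and 406 CPM in Control 1 to 5. The 1C-MIM values of Uqcrh were 329, 236, 258, 253 and 281.1 CPM, again with 1C-MIM 1 alone inside the Control range (log2 fold change -0.35, SE 0.10, edgeR adjusted p = 0.023). Uqcrq, which sits beside the mitochondrially encoded cytochrome b, had 268, 284.2, 264, 280.3 and 310.4 CPM in Control and 289.8, 189, 211, 204 and 225 CPM in 1C-MIM (log2 fold change -0.33, SE 0.10, edgeR adjusted p = 0.0308). Here 1C-MIM 1 was higher than 4 of the 5 Control libraries. The other accessory subunits, Uqcrb (-0.15, SE 0.09) and Uqcr10 (-0.19, SE 0.09), did not pass. Complex III had 0 members called without Control 5, 1C-MIM 3 or 1C-MIM 4, and 1 without 1C-MIM 2, and the calls lost in these 4 fits had log2 fold changes of -0.27 to -0.32 and edgeR adjusted p of 0.0528 to 0.0904. Uqcrq also lost its call without Control 4 (edgeR adjusted p = 0.0583) or 1C-MIM 5 (0.0542). Without 1C-MIM 1 it had 5 called.

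None of the complex III subunits that carry electrons was called, nor was cytochrome c. Cyc1, the cytochrome c1 subunit that hands electrons to cytochrome c, had 408, 471, 437, 442 and 446 CPM in Control and 454, 356, 384, 381.5 and 399.8 CPM in 1C-MIM. Its log2 fold change was -0.16 (SE 0.07, edgeR adjusted p = 0.105). Uqcrfs1, the Rieske iron-sulfur protein, was at -0.07 (SE 0.07), and the core proteins Uqcrc1 and Uqcrc2 were at -0.11 (SE 0.07) and -0.02 (SE 0.06). Cycs, cytochrome c itself, had 134, 123, 108, 124 and 128 CPM in Control and 129.8, 101, 102, 102 and 109 CPM in 1C-MIM (log2 fold change -0.18, SE 0.08, edgeR adjusted p = 0.114). Both Cyc1 and Cycs had groups that overlapped.

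Complex IV had the largest share of members called, 9 of 15 tested (median log2 fold change -0.28), with 0 higher. The 9 were Cox5b, Cox6a1, Cox6b1, Cox7a1, Cox7a2, Cox7a2l, Cox7b, Cox8a and Cox8b. Whether the share differs between complexes was not tested. With the length trend removed 2 of the 15 were called lower, against 3 of 17 for ATP synthase. Cox6b1, a subunit that caps the enzyme on the side of the intermembrane space, had 308, 313, 287, 310.2 and 370.0 CPM in Control. It had 299, 236, 258, 240.3 and 267 CPM in 1C-MIM (log2 fold change -0.29, SE 0.08, edgeR adjusted p = 0.0211), so 1C-MIM 1 was the only supplemented library above the lowest Control. Cox5b (-0.26, SE 0.08), Cox7b (-0.28, SE 0.09) and Cox7a2l (-0.23, SE 0.08), the last a factor of respiratory supercomplexes, were also called, each near the threshold (edgeR adjusted p 0.0424 to 0.0475). These 3 lost their calls when the animal series was entered as a block, which left complex IV with 6 called. Cox4i1 (-0.23, SE 0.09), Cox5a (-0.18, SE 0.08), Cox6c (-0.15, SE 0.09) and Cox7c (-0.33, SE 0.13) were not. Cox4i2, an isoform best known from lung, was low and variable (2.87 ± 0.793 CPM per kilobase in Control, SD, n = 5) and not called. The count for complex IV fell to 5 without Control 4 or 1C-MIM 2, to 4 without Control 5 and to 3 without 1C-MIM 3 or 1C-MIM 4. Of the genes given above with all their values, Cox6b1 lost its call without 1C-MIM 3 or 1C-MIM 4 (edgeR adjusted p 0.0541 and 0.0689).

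Of the 3 muscle isoforms, Cox7a1 and Cox8b were called lower and Cox6a2 was not, and all 3 ubiquitous partners were called lower. The muscle isoforms were not tested against each other. Cox7a1 had 264, 261, 236, 258 and 307 CPM in Control and 239.6, 189, 181, 174 and 203 CPM in 1C-MIM. The groups met only at Control 3 and 1C-MIM 1, and the log2 fold change was -0.43 (SE 0.09, edgeR adjusted p = 0.00656). Its partner Cox7a2 had 194, 177, 159.8, 183 and 200.4 CPM in Control and 182, 132, 135, 138 and 139.8 CPM in 1C-MIM. Of the supplemented libraries 1C-MIM 1 alone lay within the Control range of Cox7a2 (log2 fold change -0.33, SE 0.09, edgeR adjusted p = 0.0213). Its edgeR adjusted p was 0.0507 without Control 5, 0.0603 without 1C-MIM 3 and 0.0635 without 1C-MIM 4.

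Cox8b had 381.5, 383.4, 364, 389 and 470.2 CPM in Control and 392, 278, 308, 283.004 and 334 CPM in 1C-MIM. Control 5 stood far above the other Control libraries, and 1C-MIM 1 exceeded 4 of them (log2 fold change -0.32, SE 0.10, edgeR adjusted p = 0.0328). Without Control 5 Cox8b was at -0.24 and lost its call (edgeR adjusted p = 0.08), as it did in the fits that left out Control 4 or replicate 2, 3 or 4 of 1C-MIM (adjusted p 0.0573 to 0.0981). Cox8a, the ubiquitous form, had 37.9, 40.2, 39.1, 39.0 and 46.8 CPM in Control and 36.6, 29.6, 31.2, 28.9 and 33.7 CPM in 1C-MIM. Every 1C-MIM library was below every Control library for Cox8a (log2 fold change -0.34, SE 0.08, edgeR adjusted p = 0.0095).

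Cox6a2 had 739, 786, 764, 777 and 951 CPM in Control and 896, 637, 793, 693 and 804 CPM in 1C-MIM. The groups overlapped over most of their range (log2 fold change -0.07, SE 0.09; adjusted p in edgeR 0.604). Its partner Cox6a1 was far less abundant, with 25.2, 28.4, 24.3, 25.2 and 33.2 CPM in Control and 23.1, 20.3, 19.8, 16.6 and 22.2 CPM in 1C-MIM. The groups of Cox6a1 did not overlap, and the log2 fold change was -0.42 (SE 0.10, edgeR adjusted p = 0.0129). Cox6a1 and Cox8a were the 2 members whose groups did not overlap, both lower in 1C-MIM; such genes made up 7.98% of all tested genes.

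**Figure D2:**
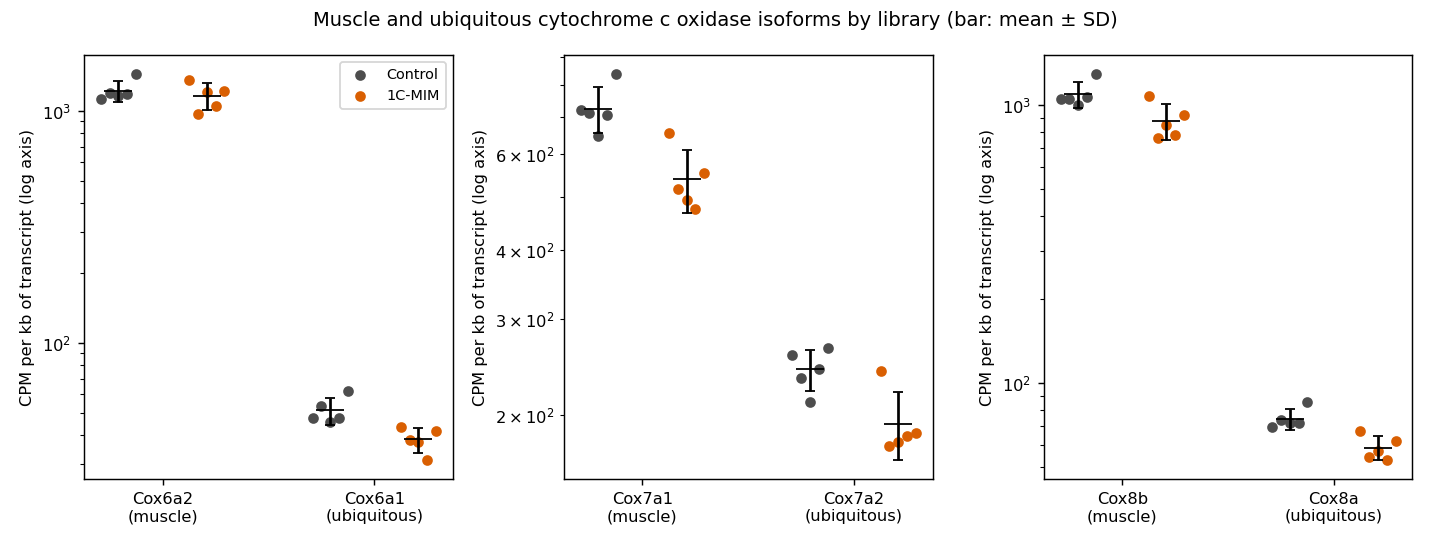
CPM per kilobase of transcript (log axis) of the muscle isoforms and their ubiquitous partners in each library (points in replicate order), with group means and SD bars. Cox6a2 overlaps between groups, while every 1C-MIM point of Cox6a1 and Cox8a lies below every Control point.

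Ratios within a library do not depend on how libraries are scaled. The log2 read ratio of Cox6a2 to Cox6a1 was 4.87, 4.79, 4.97, 4.95 and 4.84 in Control 1 to 5 and 5.27, 4.97, 5.32, 5.38 and 5.18 in 1C-MIM 1 to 5. The ratio was above that of all Control libraries in 4 supplemented ones, and 1C-MIM 2 was level with the highest of them, Control 3. The means were 4.89 ± 0.07 and 5.22 ± 0.16 (SD, n = 5 each), a difference of 0.34 (SE 0.08; exact permutation test, two-sided, p = 0.0159, adjusted over 3 pairs 0.0476). Without Control 1, 2, 4 or 5 the adjusted p was 0.0714 (exact permutation), and within the 280 and the 380 series it was 0.3 and 0.5, where so few libraries cannot pass. The difference ranged over 0.30 to 0.40 when any 1 library was left out. Per length, Cox6a2 made up 96.0% ± 0.197 of the pair in Control and 96.8% ± 0.360 in 1C-MIM (SD, n = 5 each).

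The log2 read ratio of Cox7a1 to Cox7a2 was 0.54 ± 0.07 in Control and 0.44 ± 0.09 in 1C-MIM (SD, n = 5 each). That difference of -0.10 (SE 0.05) did not pass (exact permutation test, two-sided, p = 0.0714, adjusted 0.107). For Cox8b to Cox8a the ratios were 3.29 ± 0.05 and 3.31 ± 0.07, a difference of 0.02 (SE 0.04; exact permutation p = 0.611 before and after adjustment). Cox7a1 made up 74.9% ± 0.866 of its pair per length in Control and Cox8b 93.6% ± 0.212 (SD, n = 5 each). So the muscle form was the main transcript of all 3 pairs in both groups, by the least for Cox7a1. In CPM per kilobase, Cox6a2 was at 1219 ± 128 in Control, Cox8b at 1095 ± 115 and Cox7a1 at 725 ± 70.0, while Cox7a2 was at 242 ± 21.0, Cox8a at 74.5 ± 6.56 and Cox6a1 at 51.1 ± 6.83 (SD, n = 5 each). Cox6a2 and Cox8b, neighbours at the top of that order, differed by less than the SD of Cox6a2.

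**Figure D3:**
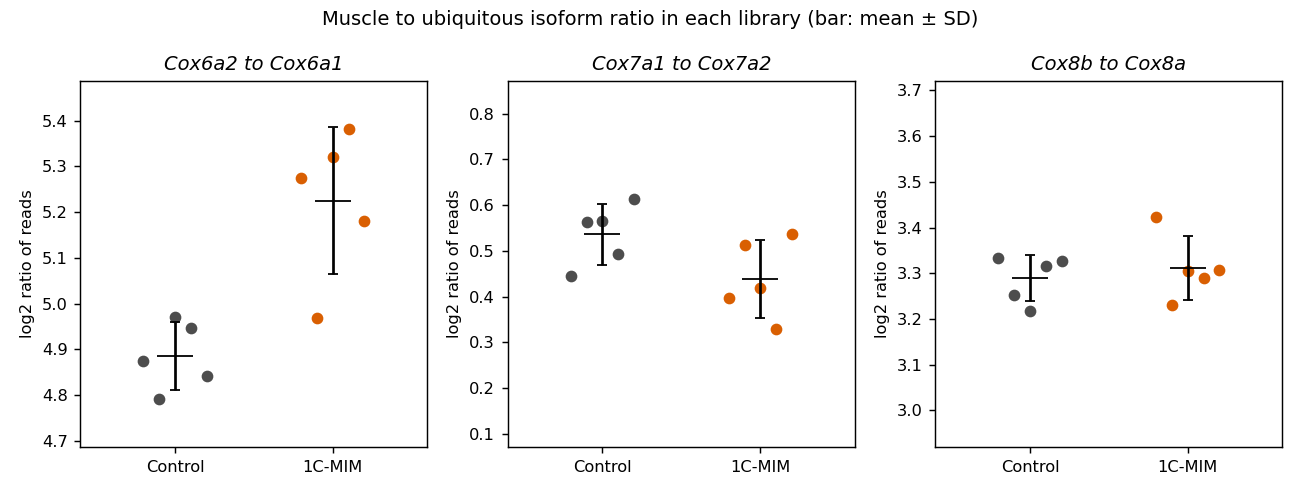
Log2 ratio of reads of each muscle isoform to its ubiquitous partner in each library (points), with group means and SD bars; the 3 axes span the same width. For Cox6a2 to Cox6a1 the means are 4.89 (Control) and 5.22 (1C-MIM); the other pairs overlap more widely.

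ATP synthase had 4 of 17 members called lower (median log2 fold change -0.18) and 0 higher. Without the name-only matches Atp5s and Atp5sl it was 4 of 15 (median -0.19). Of the 4, Atp5j2 and Atp5k are membrane subunits, Atp5e is of the central stalk and Atp5g2 of the c ring. The third membrane subunit, Atp5l (-0.24, SE 0.09), was not called (edgeR adjusted p = 0.0747). Atp5e, the epsilon subunit of the central stalk and the smallest of the F1 part, had 401, 363, 341, 381.995 and 445 CPM in Control and 371, 258, 287, 261 and 287 CPM in 1C-MIM. For Atp5e, 4 supplemented libraries lay below all Control libraries (log2 fold change -0.40, SE 0.10, edgeR adjusted p = 0.0141). Atp5j2, the f subunit of the membrane part, had 312, 293, 267, 302 and 346 CPM in Control and 285.5, 210.0, 223, 219 and 250.4 CPM in 1C-MIM, with 1C-MIM 1 again inside the Control range (log2 fold change -0.36, SE 0.09, edgeR adjusted p = 0.0144).

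Atp5k, the e subunit that takes part in pairing of the enzyme in the inner membrane, had 213, 184, 169, 186 and 250.1 CPM in Control. It had 184, 119, 138, 131 and 145 CPM in 1C-MIM (log2 fold change -0.48, SE 0.12, edgeR adjusted p = 0.0165). RefSeq names 4 pseudogenes of Atp5k, whose reads the counting could share with it, so its value is uncertain. Without 1C-MIM 4 the edgeR adjusted p of Atp5k was 0.0514. ATP synthase had 2 members called without 1C-MIM 4 and 10 without 1C-MIM 1.

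Atp5g2, 1 of 3 genes that encode the same mature c subunit of the rotor ring, had 34.5, 34.1, 32.9, 32.6 and 38.3 CPM in Control and 34.1, 26.1, 28.5, 27.2 and 29.7 CPM in 1C-MIM (log2 fold change -0.24, SE 0.08, edgeR adjusted p = 0.0346). Its call was lost in 6 of the 10 fits that leave out 1 library (Control 1 or 5, or 1C-MIM 2, 3, 4 or 5; edgeR adjusted p 0.0503 to 0.103). The other c subunit genes, Atp5g1 (-0.18, SE 0.08) and Atp5g3 (-0.20, SE 0.07), were not called. Per kilobase of transcript Atp5g3 was the main one of the 3 in Control (696 ± 37.6 CPM), followed by Atp5g1 (312 ± 16.04) and Atp5g2 (53.3 ± 3.54; SD, n = 5 each).

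No large F1 subunit was called. Atp5a1 (alpha) had 2146, 2376, 2267, 2353 and 2325 CPM in Control and 2624, 2224, 2309.8, 2387 and 2437 CPM in 1C-MIM (log2 fold change 0.06, SE 0.06). Atp5b (beta, which holds the catalytic sites) was at 2900.0 ± 104 CPM in Control and 2853 ± 169.8 CPM in 1C-MIM (SD, n = 5 each; log2 fold change -0.02, SE 0.06). Atp5c1 (gamma) and Atp5d (delta) were at -0.07 (SE 0.07) and -0.19 (SE 0.08). None of the 4 peripheral stalk genes was called: Atp5f1 (-0.16, SE 0.07), Atp5h (-0.24, SE 0.11), Atp5j (-0.07, SE 0.08) and Atp5o (-0.18, SE 0.08). Atp5s, a name-only match, had 13.2, 12.7, 11.3, 12.7 and 13.6 CPM in Control and 15.9, 12.7, 12.7, 15.0 and 13.3 CPM in 1C-MIM (log2 fold change 0.13, SE 0.08, edgeR adjusted p = 0.259). Its groups overlapped, and Atp5sl was at 0.02 (SE 0.06).

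Summed over members, complex III transcripts reached 3247 to 3642 CPM in Control and 2776 to 3532 CPM in 1C-MIM. Complex IV transcripts summed to 4039 to 5043 CPM in Control and 3296 to 4531 CPM in 1C-MIM, and those of ATP synthase to 8869 to 9827 and 8065 to 9996 CPM. The mean sum in 1C-MIM was 89.5% of Control for complex III, 85.7% for complex IV and 94.9% for ATP synthase. All 3 sums overlapped between groups. The ATP synthase sum was dominated by the abundant Atp5a1 and Atp5b.

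The share of members called lower went with transcript length. Under 600 bases, 12 of 18 members were called lower (median log2 fold change -0.33). From 600 to 1200 bases it was 4 of 14 (-0.18), and at 1200 bases or more 0 of 10 (-0.05). Cox7a1 (366 bases), Atp5e (414 bases) and Atp5k (292 bases, the shortest member) are examples of the short class, and Atp5a1 (2431 bases), Atp5b (1879 bases) and Cycs (3059 bases) of the long one. Across members, Spearman's rho of fold change with length was 0.76 (n = 42). It was 0.94 within ATP synthase (n = 17, with Atp5s and Atp5sl included), 0.77 within complex III (n = 9) and 0.44 within complex IV (n = 15). The points share the same 10 libraries, so these are descriptions with no test.

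The relation with length was not confined to these genes. Over all 13880 tested genes rho was 0.44, and 83 of 351 genes under 600 bases (23.6%) were called lower, against 384 of 1298 from 600 to 1200 bases (29.6%) and 1175 of 12231 longer ones (9.61%). Median log2 fold changes in those classes were -0.21, -0.20 and 0.02.

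**Figure D4:**
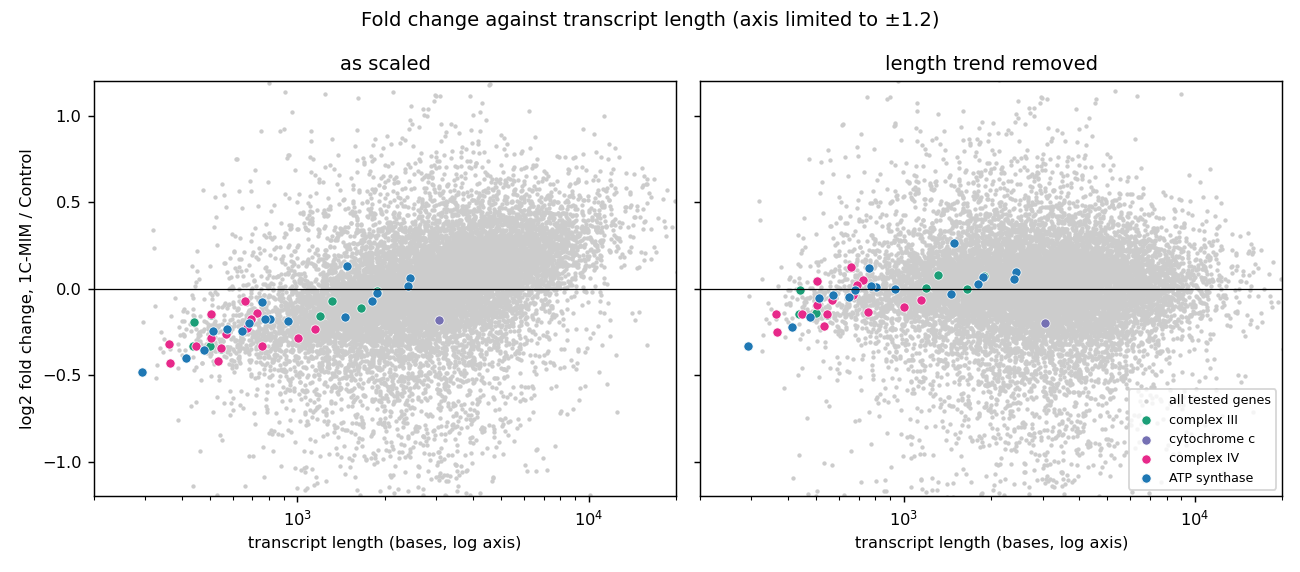
Log2 fold change against transcript length (log axis, bases) for all tested genes (grey) and the members coloured by complex, as scaled (left) and with the length trend removed (right); the vertical axis ends at 1.2 in both directions. On the left, members under 600 bases have a median of -0.33 and those of 1200 bases or more a median of -0.05.

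Removing each library's own trend with length, fitted over all genes, left 5 members lower (Atp5e, Atp5j2, Atp5k, Cox7a1 and Cox8a) and 1 higher (Atp5s). In that fit 9.31% of all tested genes were called lower and 6.95% higher. The member median became -0.03. All 5 called lower were among the 18 members under 600 bases, whose median was then -0.15, against 0.06 at 1200 bases or more. Spearman's rho of fold change with length was still 0.61 across members (n = 42) and 0.84 within ATP synthase (n = 17). Over all tested genes it was 0.01. The removal thus left a relation with length among the members. Complex III had 0 called and a median of 0.00, complex IV 2 called lower and a median of -0.09, and ATP synthase 3 lower and 1 higher with a median of 0.00. The 1 higher was the name-only Atp5s. The 15 subunits without Atp5s and Atp5sl had 3 lower and 0 higher (median -0.01). Cox7a1 was then at -0.25 (SE 0.05, edgeR adjusted p = 0.00718), Atp5k at -0.33 (SE 0.08, 0.0126) and Atp5e at -0.22 (SE 0.06, 0.02). Cox6a2 changed sign to 0.13 (SE 0.05, edgeR adjusted p = 0.0984), and Atp5s rose by 0.27 (SE 0.07, edgeR adjusted p = 0.0212). The slopes with length differed in mean between Control and 1C-MIM, so the removal also took out any group difference that ran with length. The part of RNA quality or library preparation in the length relation was not tested.

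Most members were high and low in the same libraries. Of the 42 tested members, 27 had at least 4 of the 5 1C-MIM libraries below every Control library, against 16.7% of all tested genes. By length it was 17 of 18 members under 600 bases (36.5% of all genes of that length), 9 of 14 from 600 to 1200 bases (40.6%) and 1 of 10 longer ones (13.6%). Whether the members differ in this from other genes of their length was not tested. Control 5 was the highest of all 10 libraries for 28 members and 1C-MIM 2 the lowest for 32. For 40 members 1C-MIM 1 was the highest supplemented library, and for 29 it was above the Control mean, including 4 of the 16 called ones. The median deviation of the members from their means over all libraries was 0.15 in 1C-MIM 1 and -0.27, -0.15, -0.18 and -0.09 in 1C-MIM 2 to 5. In Control 1 to 5 it was 0.08, 0.10, 0.00, 0.10 and 0.27. After the length trend was removed the deviations ran from -0.05 to 0.09, with 1C-MIM 1 the highest.

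**Figure D5:**
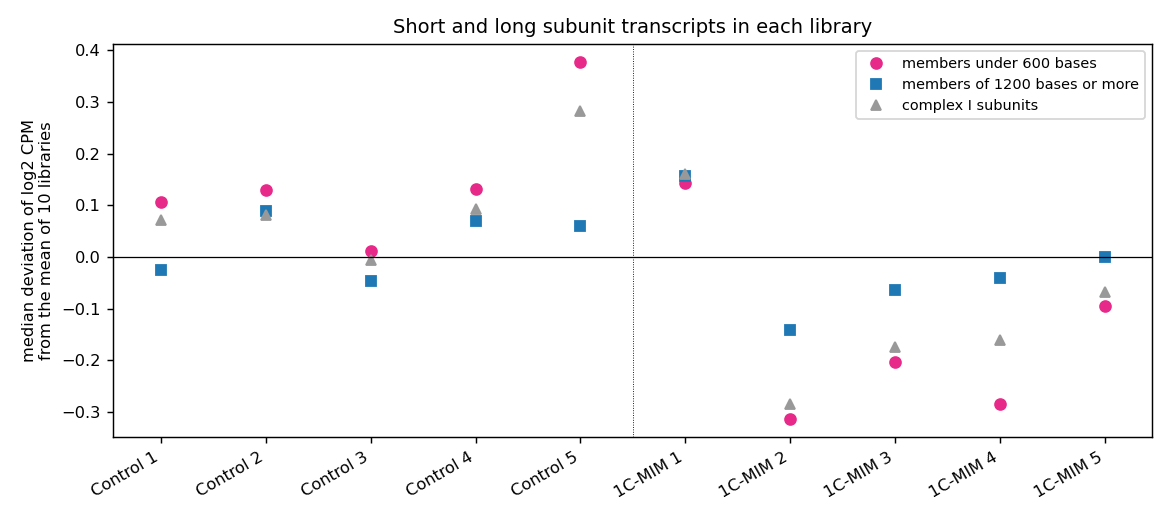
Median deviation of log2 CPM in each library from the mean over the 10 libraries, for members under 600 bases (circles), members of 1200 bases or more (squares) and complex I subunits (triangles). Circles run from 0.38 in Control 5 to -0.31 in 1C-MIM 2, squares from 0.16 in 1C-MIM 1 to -0.14 in 1C-MIM 2.

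Genes that work beside the members were grouped by function. Structural subunits of complex I, the entry point for electrons from NADH, had 9 of 38 tested members lower and 0 higher (median -0.22), a share of 23.7% against 38.1% of the members of the later complexes. This difference in share was not tested. The 38 were chosen by name and include Ndufa4 (-0.26, SE 0.09, edgeR adjusted p = 0.0512), whose product is now placed in complex IV. Ndufa4 was also counted in the complex IV list below. With the length trend removed 2 of the 38 were lower (median -0.04). Ndufc2 (-0.36, SE 0.09) and Ndufs5 (-0.32, SE 0.09) had the smallest p. Of 4 complex II genes 0 passed, with Sdhc at -0.11 (SE 0.07) and Sdha at 0.08 (SE 0.05).

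Lists of assembly factors, which for ATP synthase also held other proteins, were short. The shares called lower were 20.0% for complex III, 14.3% for complex IV and 28.6% for ATP synthase. They are set here beside the 11.8% of all tested genes that were called lower. For complex III 1 of 5 was lower (Uqcc2, -0.36, SE 0.10), while Uqcc1 was at -0.09 (SE 0.05). For complex IV 4 of 28 (14.3%) were lower and 0 higher, led by Cox14 (-0.35, SE 0.07) and Coa3 (-0.30, SE 0.08), which both act on the newly made Cox1 protein. For ATP synthase assembly and regulation 2 of 7 were lower, namely Atpif1 (-0.53, SE 0.11), the inhibitor of the enzyme's reverse reaction, and 2010107E04Rik (-0.35, SE 0.11). The products of 2010107E04Rik and Usmg5 (-0.25, SE 0.09, edgeR adjusted p = 0.0676) are small proteins of the enzyme, not assembly factors. The name rule for members did not take them in, so both stand outside the ATP synthase count above. With the length trend removed the counts were 0 of 5 for complex III, 2 lower and 1 higher of 28 for complex IV and 1 lower of 7 for ATP synthase. Uqcc2 (edgeR adjusted p = 0.0542), Coa3 (0.184) and 2010107E04Rik (0.103) were then no longer called, and Cox14 (0.0298) and Atpif1 (0.00636) were. Among 13 carriers 3 were lower and 1 higher, with Ucp2 at -0.64 (SE 0.10) and Slc25a5, an ADP/ATP carrier, at -0.30 (SE 0.05). Slc25a5 was not called with the length trend removed (-0.14, edgeR adjusted p = 0.0876). Of 16 regulators of these genes 1 was higher (Yy1, 0.23, SE 0.07) and 0 lower, and Tfb2m, a mitochondrial transcription factor, was at 0.16 (SE 0.06) without passing.

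Marker lists showed what else differed in the same libraries. The muscle label held: myofibre markers summed to 187509 to 216027 CPM in Control and 198698 to 226246 CPM in 1C-MIM, with 3 of 9 higher (among them Actn3 at 0.45, SE 0.08, and Myh1 at 0.42, SE 0.09) and 0 lower. The median of the myofibre list was -0.01, with 5 of 9 below 0 at any size, such as Pvalb (-0.26, SE 0.09, edgeR adjusted p = 0.0533), Mylpf (-0.24, SE 0.09) and Tnni2 (-0.17, SE 0.09). Pvalb, Mylpf, Tnni2, Myh2 and Mb, and Dcn, Pdgfra and Ly6a below, were chosen after their values were seen. Slow or oxidative fibre markers, which mark fibres rich in mitochondria, had 4 of 10 lower, led by Tnni1 (-2.62, SE 0.24) and Tnnt1 (-1.05, SE 0.18), and 0 higher. The more abundant Myh2 (0.55, SE 0.18, edgeR adjusted p = 0.0538) and Mb (0.09, SE 0.15) had values above 0 without passing, and the sum of the list ran from 1737 to 3313 CPM in Control and from 2845 to 3430 CPM in 1C-MIM. Macrophage markers had 4 of 5 tested lower, with a summed level of 173 to 335 CPM in Control and 97.4 to 143 CPM in 1C-MIM; Cd68 was at -1.34 (SE 0.14) and Lyz2 at -1.33 (SE 0.15). Fibro-adipogenic markers had 3 of 5 lower (610.1 to 781 CPM against 497 to 756 CPM), with Lum at -0.46 (SE 0.09) and Col1a1 at -1.09 (SE 0.21). The other 2, Dcn (0.07, SE 0.12) and Pdgfra (0.03, SE 0.13), had values above 0 without passing. With the length trend removed 2 of the 5 were lower, and Ly6a (edgeR adjusted p = 0.118) was no longer called.

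Endothelial markers had 3 of 5 higher (138 to 199 CPM in Control, 201 to 230.4 CPM in 1C-MIM), with Cdh5 at 0.37 (SE 0.09) and Tek at 0.38 (SE 0.12). With the length trend removed 1 of the 5 was called (Cdh5, edgeR adjusted p = 0.0175), while Tek (0.0792) was not. White adipocyte markers had 1 higher (Lep, 1.42, SE 0.32) and 1 lower (Cfd, -0.82, SE 0.09) of 5, with sums of 592 to 722 and 421 to 694 CPM. Smooth muscle markers had 0 of 4 called (167 to 236 against 175 to 236 CPM; Tagln -0.24, SE 0.10, and Myh11 0.30, SE 0.14). Cardiomyocyte markers summed to 2.4 to 7.4 CPM in Control and 3.5 to 5.7 CPM in 1C-MIM (Nppa -0.41, SE 0.25, and Tnni3 -0.33, SE 0.24), and brown adipocyte markers to 2.8 to 4.6 and 2.4 to 4.2 CPM (Zic1 -0.52, SE 0.21, and Cidea -0.61, SE 0.29), with 0 called in both lists. Ucp1, which defines brown adipocytes, had 13 reads over all libraries. The part of fibre type and of the other cell types in the members' decrease was not tested.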

How the data were processed

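Quadriceps RNA of 10 animals was compared, 5 Control and 5 1C-MIM, with groups taken from the sample titles. Per the file headers, the deposited tables list 33984 transcripts, each with counts, FPKM and TPM. The deposited count values are whole numbers, not normalized by the authors. FPKM, which the authors scaled for length and library total, was used for transcript lengths alone. TPM, which the authors scaled to a fixed total, was left aside. The submitters' processing notes name build GRCm39 and, with no roles, STAR, featureCounts, bedtools 2.30.0, DESeq2 1.28.0, Picard 2.27.4, Salmon 1.5.2, SAMtools 1.15.1, StringTie 2.2.1, Subread 2.0.1 and Trim Galore 0.6.7. Neither strandedness nor the treatment of reads that fit several places is given in the sources used here, so reads of antisense genes and of near-identical copies may be shared. RefSeq names pseudogenes of Atp5k (4), Cycs (3), Atp5l (2), Uqcrh (2), Atp5c1, Cox5b and Cox7c (1 each).

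For each symbol the transcript with the largest summed count was kept, which left out 45.3 to 47.4% of a library's counts, held by other transcripts of the same symbols. This choice decided between transcripts for 6 members. Genes were filtered with filterByExpr, scaled with TMM factors and compared with edgeR 4.0.16 (quasi-likelihood F test, robust, R 4.3.3). A prior count of 2 was used for log2 CPM. Isoform ratios had 0.5 reads added and were compared by exact permutation over 252 assignments, two-sided, where the smallest p possible is 0.00794. The length trend of each library was fitted with natural splines with 3 inner knots and entered as offsets. The edgeR fit without these offsets was run on simulated data with known changes. The fit with length offsets was not tested on simulated data.

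Members named with values in every library were the 6 isoforms, Cyc1, Cycs, the 4 with the smallest p of each complex, and the largest change in each direction in each complex; Atp5a1 was added to these after its values were seen. Of each other list the 2 genes with the smallest p were named, except 1 marker list that is not reported here. The members and lists were chosen with earlier results of these data known. Alternatives were other scalings, filters and tests (DESeq2 1.42.0, limma 3.58.1), blocks, single libraries left out, animal series, removal of length and GC trends, and counts summed over transcripts. Promoter windows are on GRCm38.p6, while no coordinates are taken from the files, whose build is GRCm39.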

Additional observations from a re-analysis of the deposited data

Results flagged for a closer look

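In 4 of 40 groups of 5 libraries checked for members named with values in every library or for their ratios, 1 library's gap to the nearest other, divided by the range of the group, was above Dixon's 95% critical value for 5 values. About 1 in 20 groups would be marked by chance. For 3 genes the library was Control 5, which was high: Cox6a2 (0.755), Cox8b (0.742) and Cox8a (0.717). For Cox7a2 it was 1C-MIM 1, which was high among the supplemented libraries (0.830).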

How the results depend on the processing

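The direction of the members' median change was lower under every scaling, filter, test, block and left-out library tried, and the number called was not stable. Over all genes, 1808 were called without Control 1 and Control 5, 95 in animals numbered from 280 and 396 in those numbered from 380 (1680 to 3443 with single libraries left out). Under library totals, without Control 1 and Control 5, and in the 280 and 380 series, 606, 832, 31 and 127 genes were higher and 2896, 976, 64 and 269 lower; 2114 were higher at an adjusted p under 0.1, and single left-out libraries gave 739 to 1558 higher and 941 to 1885 lower. Members called lower in those same 4 settings numbered 31, 3, 0 and 3, and 5 and 7 with the trend with length or with length and GC content removed (5 to 29 with single libraries left out); 1 was higher with the length trend removed. For complex III the 6 counts were 7, 0, 0, 0, 0 and 1 (0 to 5). Complex IV had 3, 0 and 2 called lower without Control 1 and Control 5 and in the 2 series, and 2 under both trend removals (3 to 13). ATP synthase had 11, 0, 0 and 1 under library totals, without the pair of Control libraries and in the 2 series (2 to 10). The range in each bracket is over single libraries left out.

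Median log2 fold changes with length, and with length and GC content, removed were -0.00076 and 0.025 for complex III, -0.093 and -0.099 for complex IV, -0.0040 and 0.012 for ATP synthase and -0.033 and -0.027 for all members, so that of complex III and of ATP synthase changed sign in the latter. Cox6a2 changed sign to 0.0018 without Control 5 (-0.13 to 0.0018 over single libraries left out), 0.027 in the 280 series, and 0.13 in both trend removals, and Cyc1 to 0.0017 and 0.038 in the trend removals. The ratio Cox6a2 to Cox6a1 stayed above 0 but missed the threshold without Control 1 and Control 5 (0.32), in the 280 (0.31) and 380 (0.39) series and without Control 1, 2, 4 or 5 (0.30 to 0.40 over single libraries left out). The ratio Cox8b to Cox8a changed sign to -0.00090 with the length trend removed, to -0.023 in the 380 series and to -0.0065 without 1C-MIM 1 (-0.0065 to 0.042). The causes were not tested. The comparison within the 2 series for ratios was chosen after seeing the data.

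Replicate numbers were not used as pairs in the main fit. The deviations of equally numbered libraries correlated at -0.08, 0.12, 0.06, 0.12 and 0.39, and 2 of the 5 Control libraries correlated best with their own number. Whether this differs from unpaired libraries was not tested. With the replicate number as a block 20 members and 1965 of all genes were called lower, against 16 and 1642 without it. With that pairing the Cox6a2 to Cox6a1 ratio differed by 0.34 (exact sign-flip p adjusted 0.0938, where the smallest p such a test can give is 0.0625). Over the 17 members named with values in every library and all alternatives, 367 values kept direction and side of the threshold, 79 lost the threshold, 7 gained it and 6 changed sign. Cox6b2, Cox7b2 and Cox8c had too few reads to be tested.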
